A study of Mus musculus with 4 samples.

Results

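Polycomb repressive complex 2 (PRC2) and the ASXL and BAP1 factors were described through 7 genes of a table of 24340 genes, of which 10471 reached a mean of 1 FPKM over the libraries and are called measured here. FPKM scales fragments to transcript length and to 1000000 fragments, so levels can be set beside each other between genes. The 7 genes were taken by symbol, as PRC2 subunits (Ezh1, Ezh2, Eed, Suz12) and as factors altered in myeloid neoplasms (Asxl1, Asxl2, Bap1), and all 7 were measured. The cells were lineage-negative, Kit-positive bone marrow cells of C57BL/6 mice, and the labels of every library give JAK2V617F, an activated form of the kinase JAK2. The series design text instead describes Dnmt3a and Flt3ITD mice beside Tet2 and does not mention JAK2V617F, and the sample labels were followed here. The 4 groups were Tet2+/+ control, Tet2+/+ with ruxolitinib, Tet2-/- control and Tet2-/- with ruxolitinib, with 1 library each. They are called wild type and knockout below. Ruxolitinib inhibits JAK1 and JAK2. By the same design text, Tet2 was inactivated conditionally in blood-forming cells and the drug was applied to the cells after their extraction. The driver of the deletion, the dose and duration of the drug, the age of the mice and the number of animals per library were not given in the sources used here. No difference below has a replicate check. Where 4 values are given in a row, they are wild type control, wild type with ruxolitinib, knockout control and knockout with ruxolitinib.

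PRC2 places methyl groups on lysine 27 of histone H3, a mark of silenced genes. Its enzyme is either EZH2, which is abundant in dividing cells, or EZH1, which is more prominent in resting cells. EED and SUZ12 form the core that both enzymes need. BAP1 removes ubiquitin from histone H2A, the mark that Polycomb repressive complex 1 (PRC1) places, and it needs an ASXL protein for this. Loss of EZH2 and truncation of ASXL1 are recurrent in human myeloid neoplasms, often beside TET2 mutations.

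Some facts of the libraries bear on every value. Depth estimated from the steps between low FPKM values was 44300000 to 54900000 fragments per library. Tet2 was at 4.69 FPKM (control) and 5.05 FPKM (ruxolitinib) in wild-type cells and at 3.62 FPKM (control) and 4.39 FPKM (ruxolitinib) in knockout cells, and a gene-level value cannot show a deleted exon. Xist, the RNA of the inactive X chromosome, was at 53.2 FPKM or more in the knockout libraries and at 0.0309 or less in the wild-type libraries, so genotype and sex of the animals cannot be told apart. Kit lay between 421 and 647 FPKM and the mast cell chymase Cma1 between 8289 and 15834 FPKM, while Mpo, a gene of granulocyte progenitors, peaked at 1.31 FPKM and Flt3 of immature progenitors was listed at 0. Mast cells also carry Kit. Other progenitor markers were high, with the stem cell markers Cd34 at 307 to 465 and Ly6a at 583 to 1033 FPKM and the megakaryocyte integrin Itga2b at 442 to 743 FPKM. In bulk RNA, fewer cells of a type and less RNA per cell cannot be told apart.

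The main difference among the 7 genes lay between the 2 enzymes of PRC2. Without drug, Ezh2 was 1.34-fold higher and Ezh1 1.44-fold lower in the knockout than in the wild-type library. The core subunits Suz12 and Eed were 1.246-fold and 1.21-fold higher, whereas Asxl1 and Bap1 had log2 ratios of -0.01 and 0.03. The folds are ratios of FPKM + 1, which slightly understates them. None of the 7 genes reached 1.5-fold in any of the 4 comparisons. Suz12 and Ezh2 had the highest levels in each library, followed by Eed and Bap1. Ezh1 was next in the wild-type control library, above Asxl1 and Asxl2, and the lowest of the 7 genes in the knockout control library, although at 11.5 FPKM it lay close to Asxl2 at 11.6. Without replicates, neighbours in that order cannot be separated.

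**Figure D1:**
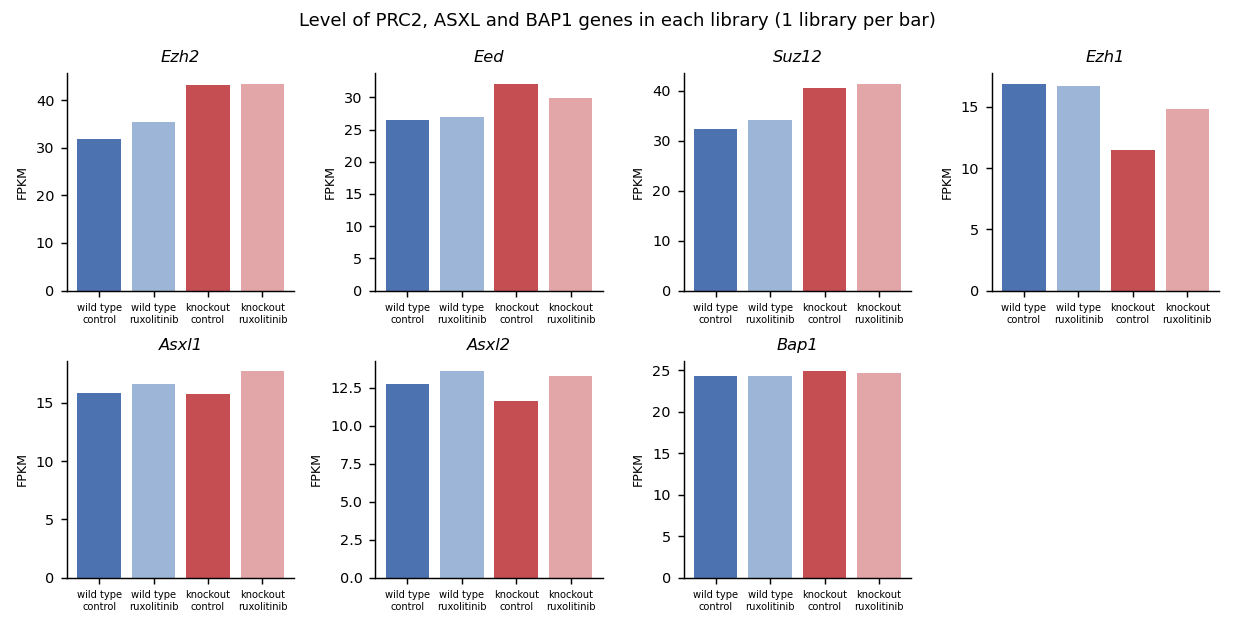
FPKM (linear axis from 0) of the 7 genes in the 4 libraries, 1 library per bar and no error bar since there are no replicates. Ezh2, Eed and Suz12 were higher in both knockout libraries, Ezh1 was lowest in the knockout control library at 11.5 FPKM, and Bap1 stayed between 24.3 and 24.9 FPKM.

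The stretches before the annotated starts of the 4 PRC2 genes are shown because their transcripts differed in direction between the libraries. Each is 250 bases long, 5′ to 3′ on the gene's own strand, from RefSeq on GRCm38.p6, the build called mm10. They lie at chr6:47595031-47595280 (minus strand) for Ezh2, chr11:101226464-101226713 (minus) for Ezh1, chr7:89980977-89981226 (minus) for Eed and chr11:79992856-79993105 (plus) for Suz12. Capitals mark a match, on either strand, to one of 6 spellings of the E2F motif, TTTCCCGC, TTTGGCGC, TTTCGCGC, TTTGCCGC, TTCCCGCC and TTGGCGCC, some of which can overlap. E2F factors drive genes of DNA replication.
Ezh2: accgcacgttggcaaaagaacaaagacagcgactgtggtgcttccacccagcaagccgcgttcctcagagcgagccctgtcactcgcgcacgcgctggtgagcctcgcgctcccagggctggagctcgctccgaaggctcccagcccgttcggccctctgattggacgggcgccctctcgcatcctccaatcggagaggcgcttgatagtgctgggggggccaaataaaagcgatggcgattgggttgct
Ezh1: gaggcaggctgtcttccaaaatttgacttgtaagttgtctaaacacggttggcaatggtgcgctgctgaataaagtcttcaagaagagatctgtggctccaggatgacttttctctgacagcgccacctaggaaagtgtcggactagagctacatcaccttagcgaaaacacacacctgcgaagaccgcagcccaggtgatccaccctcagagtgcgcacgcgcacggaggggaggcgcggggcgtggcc
Eed: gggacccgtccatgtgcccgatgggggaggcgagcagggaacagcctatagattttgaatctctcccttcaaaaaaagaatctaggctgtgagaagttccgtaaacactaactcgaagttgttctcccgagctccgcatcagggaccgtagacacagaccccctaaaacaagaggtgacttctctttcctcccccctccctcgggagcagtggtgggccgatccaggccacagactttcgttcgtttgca
Suz12: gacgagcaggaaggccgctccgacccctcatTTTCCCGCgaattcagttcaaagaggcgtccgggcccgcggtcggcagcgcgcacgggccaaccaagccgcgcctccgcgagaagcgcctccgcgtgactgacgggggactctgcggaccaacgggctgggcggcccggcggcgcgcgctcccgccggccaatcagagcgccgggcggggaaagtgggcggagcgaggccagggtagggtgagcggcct

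Among these 4 windows, Suz12 alone held a match, TTTCCCGC from 219 to 212 bases before the start. Of the other members, Asxl1 held 1, TTCCCGCC from 228 to 221 bases before the RefSeq start used for it. The Asxl1 window ends at 153345829 on chromosome 2, short of the deposited start at 153346139 given below. Windows of this length held a match in 7.17% of 7963 measured genes with a RefSeq promoter.  The cell cycle element CHR, spelled TTTGAA or TTCGAA, was in the windows of Eed (2 matches), Suz12 (1) and Asxl1 (1), and in 12.04% of windows of measured genes. An ETS motif, CCGGAAGT, was in that of Asxl2 and in 6.94% of windows. A match describes the letters and is not a bound site. The windows differed in CpG dinucleotides, of which Ezh2 held 23, Ezh1 14, Eed 12 and Suz12 37, beside a median of 17 over measured genes. Bap1 held 43, more than 98.7% of measured genes.

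Ezh2 (chromosome 6, 47530274 to 47595030, mm10), the catalytic subunit with the stronger methylating activity, was at 31.9 FPKM (control) and 35.4 FPKM (ruxolitinib) in wild-type cells and at 43.2 FPKM (control) and 43.6 FPKM (ruxolitinib) in knockout cells. Both knockout libraries lay above both wild-type libraries. The log2 ratio of FPKM + 1 for knockout over wild type was 0.42 without drug, above 92.1% of measured genes, and 0.29 with drug, above 89.3%. The 95% interval from counting error alone was 0.37 to 0.49 without drug and 0.24 to 0.36 with drug. These exact intervals use the estimated depth, the transcript length and the ratio without a pseudocount, and they say nothing of the spread between animals.

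Ezh1 (chromosome 11, 101191115 to 101226463), the alternative catalytic subunit, was at 16.9 FPKM (control) and 16.7 FPKM (ruxolitinib) in wild-type cells and at 11.5 FPKM (control) and 14.8 FPKM (ruxolitinib) in knockout cells. The knockout control library was the low one, and the other 3 lay within 14.8 to 16.9 FPKM. Its log2 ratio for knockout over wild type was -0.52 without drug, with a counting interval of -0.64 to -0.48. Of measured genes, 6.30% had a lower ratio. With drug the ratio was -0.16 (counting interval -0.25 to -0.10), and 21.4% of measured genes were lower.

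Suz12 (chromosome 11, 79993106 to 80034123), the subunit around which PRC2 is built, was at 32.3 and 34.1 FPKM in wild-type cells (control, then ruxolitinib) and at 40.5 and 41.5 FPKM in knockout cells (likewise). Its order of libraries was that of Ezh2, with both knockout libraries on top. The log2 ratio for knockout over wild type was 0.32 without drug (counting interval 0.28 to 0.37) and 0.27 with drug (0.23 to 0.33). Eed (chromosome 7, 89954654 to 89980976), which reads the methyl mark and stimulates the enzyme, was at 26.4 and 26.96 FPKM in wild-type cells and at 32.1 and 29.9 FPKM in knockout cells, control first. It too was higher in both knockout libraries, by a log2 ratio of 0.27 without drug (0.20 to 0.36) and 0.14 with drug (0.07 to 0.23).

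Bap1 (chromosome 14, 31251489 to 31259929), the deubiquitinase, was the steadiest of the 7 genes, at 24.3 FPKM in both wild-type libraries, and 24.9 (control) and 24.6 FPKM (ruxolitinib) in knockout cells. Its highest value was 1.03 times its lowest, and all 4 of its counting intervals included 0. Asxl1 (chromosome 2, 153346139 to 153404007), the partner of BAP1 that is truncated in myeloid neoplasms, was at 15.9 and 16.6 FPKM in wild-type cells (control, then ruxolitinib) and at 15.7 and 17.7 FPKM in knockout cells (likewise). Asxl2 (chromosome 12, 3426857 to 3506849), its paralogue, was at 12.8, 13.6, 11.6 and 13.3 FPKM. For both ASXL genes the library with drug was above its own control. Without drug the log2 ratio for knockout over wild type was -0.01 for Asxl1 (counting interval -0.07 to 0.04) and -0.12 for Asxl2 (-0.21 to -0.05). With drug it was 0.09 for Asxl1 (0.04 to 0.15) and -0.03 for Asxl2 (-0.11 to 0.04). The third ASXL gene, Asxl3, was listed at 0 in all 4 libraries.

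These values can be read against all measured genes. For knockout over wild type without drug, 3.88% of measured genes were higher by 1.5-fold or more and 5.06% lower by as much, against 0 of 7 and 0 of 7 members. At a lower line, a log2 ratio of 0.32 in size, the members counted were Ezh2 on the higher side, beside 12.8% of measured genes, and Ezh1 on the lower side, beside 12.9%. Suz12 lay just under that line. With drug, 2.97% of measured genes were 1.5-fold higher and 3.34% lower, against 0 members in each case. At the lower line 9.45% were higher and 9.03% lower, against 0 members in each case on the FPKM scale. The median log2 ratio of the 7 genes was 0.03 without drug and 0.09 with drug, beside 0.00 over measured genes in both comparisons.

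In the authors' deposited table, the q-values of the comparison without drug were 0.000746 for Ezh1, 0.0122 for Ezh2, 0.0837 for Suz12 and 0.175 for Eed. At a q of at most 0.05 this gave 2 of 7 members, beside 19.1% of genes tested there. With drug the authors' deposited table gave 0.127 for Ezh2, 0.160 for Suz12 and 0.489 for Ezh1, so 0 of 7 members were called, beside 13.6% of genes. Those q-values compare pairs of libraries and not genotypes.

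**Figure D2:**
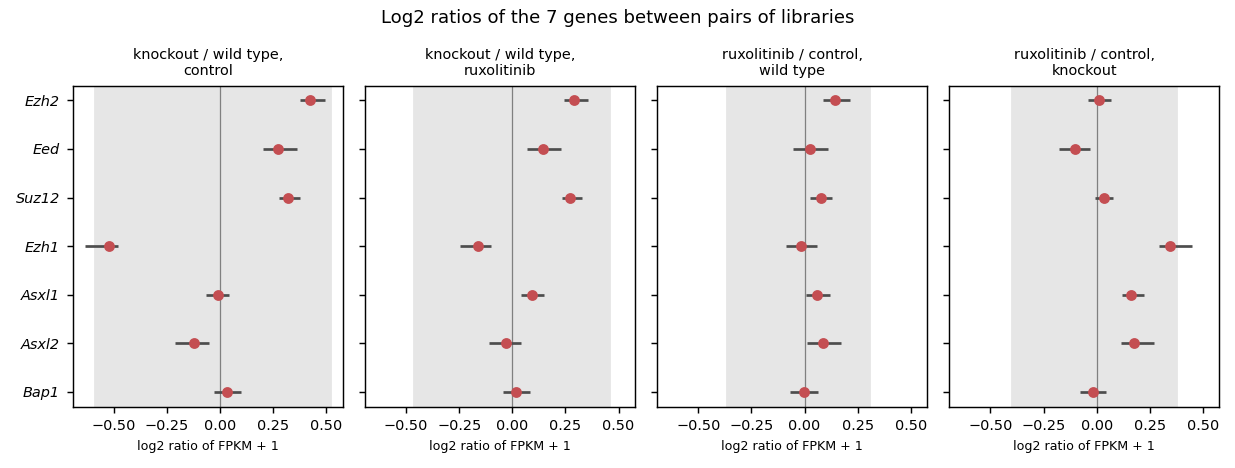
Log2 ratio of FPKM + 1 (horizontal axis) of each gene in the 4 pairs of libraries. Bars are 95% counting intervals of the ratio without a pseudocount, and grey bands run from the 5th to the 95th percentile of measured genes; all 28 points lie inside the bands.

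The scaling between libraries affected the size of these differences. FPKM summed to 526299 and 511644 in the wild-type control and ruxolitinib libraries and to 473933 and 466334 in the matching knockout libraries. Rescaling each library to the same total (TPM) raised the median log2 ratio of all measured genes by 0.14 for knockout over wild type without drug and by 0.13 with drug. On that scale Ezh2 had log2 ratios of 0.58 and 0.43, Suz12 0.47 and 0.41, Eed 0.43 and 0.28, and Ezh1 -0.39 and -0.04, without and with drug. Relative to the median gene these were close to the FPKM values. The ratios near 0 changed sign with TPM for Asxl1 without drug, to 0.13, and for Asxl2, to 0.02 without drug and 0.10 with drug. At 1.5-fold without drug, 406 measured genes were higher and 530 lower on the FPKM scale, and 846 and 423 on the TPM scale.

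A ratio of FPKM inside one library, taken without a pseudocount, does not depend on that scaling. Ezh2 over Ezh1, the balance of the 2 enzymes, was 1.89 (control) and 2.12 (ruxolitinib) in wild-type cells and 3.76 (control) and 2.94 (ruxolitinib) in knockout cells. Both knockout libraries lay above both wild-type libraries, with a log2 difference of 0.99 in the control pair and 0.47 in the ruxolitinib pair. On the scale of FPKM + 1 these differences were 0.94 and 0.45. Ezh1 made up 34.6% (control) and 32.1% (ruxolitinib) of the summed FPKM of both enzymes in wild-type cells, and 21.0% and 25.4% in knockout cells. The sum itself was 48.8, 52.1, 54.6 and 58.4 FPKM in that order.

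The core subunits kept closer proportions. Ezh2 over Suz12 stayed between 0.988 and 1.07 in the 4 libraries, and Ezh2 over Eed between 1.21 and 1.46. Asxl1 over Asxl2 was 1.24 and 1.22 in the wild-type control and ruxolitinib libraries and 1.35 and 1.33 in the knockout ones. Bap1 stood at 0.794 to 0.910 times the sum of Asxl1 and Asxl2.

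**Figure D3:**
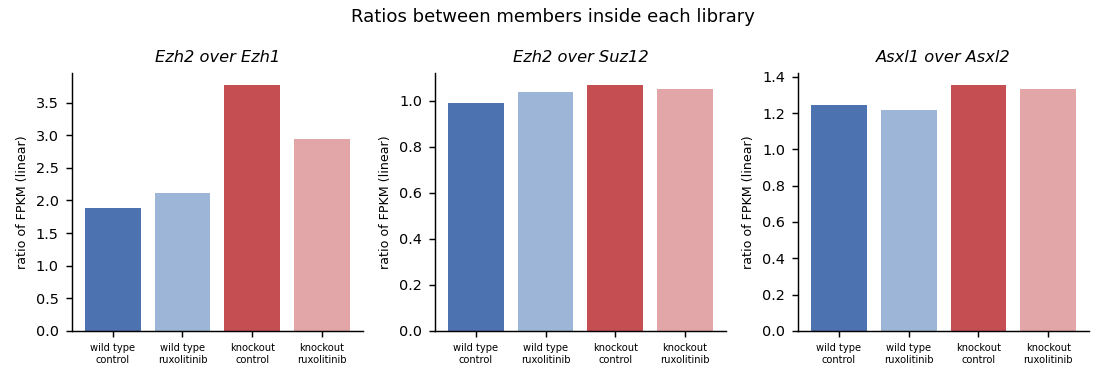
Ratio of FPKM (linear axis from 0) between pairs of members inside each of the 4 libraries, 1 library per bar. Ezh2 over Ezh1 runs from 1.89 in the wild-type control to 3.76 in the knockout control library, while Ezh2 over Suz12 stays near 1.

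Ruxolitinib left most of the 7 genes near their control level. In wild-type cells the largest log2 ratio of drug over control among them was 0.14 for Ezh2 (counting interval 0.09 to 0.21), followed by 0.09 for Asxl2, 0.08 for Suz12 and 0.06 for Asxl1. Eed at 0.03, Ezh1 at -0.01 and Bap1 at -0.00 had counting intervals that included 0, and with TPM Ezh1 became 0.02 and Bap1 0.04. No member reached the lower line of 0.32, where 4.61% of measured genes were higher and 6.06% lower, or 1.5-fold, where 1.05% were higher and 2.64% lower. The authors' deposited table called 0 of 7 members at a q of at most 0.05 and 6.52% of genes tested.

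In knockout cells, Ezh1 was the member with the largest drug ratio, at 11.5 FPKM in control and 14.8 with drug, a log2 ratio of 0.34 (counting interval 0.29 to 0.45). It was the 1 member past the lower line, on the higher side, beside 7.19% of measured genes, with 7.65% lower and 0 members. At 1.5-fold 1.67% were higher and 2.20% lower, with 0 members in either direction. Asxl2 and Asxl1 followed at 0.18 (0.12 to 0.27) and 0.16 (0.12 to 0.22), and Eed was at -0.10 (-0.18 to -0.03). Ezh2 at 0.01, Suz12 at 0.03 and Bap1 at -0.02, which became 0.01 with TPM, had counting intervals that included 0. The authors' deposited table gave Ezh1 a q of 0.0504 in this comparison, and called 0 of 7 members beside 9.58% of genes. This ratio and the knockout ratio without drug share the knockout control library, which held the lowest Ezh1 value, so they are not independent.

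The drug ratio of Ezh1 was larger in knockout than in wild-type cells by 0.36 on the log2 scale (counting interval 0.25 to 0.46), above 96.4% of measured genes. For Ezh2 the difference was -0.13 (-0.21 to -0.05) and for Eed -0.13 (-0.24 to -0.02). It was 0.10 for Asxl1 (0.03 to 0.18), and for Asxl2 at 0.09, Suz12 at -0.04 and Bap1 at -0.02 the interval included 0. With 1 library per group these differences could not be tested.

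The other PRC2 subunits were described through a list of 11 accessory genes, of which 9 were measured. Without drug 5 of the 9 had positive knockout ratios, and the list had a median log2 ratio of 0.15. At 1.5-fold, beside 3.88% of measured genes higher and 5.06% lower, 0 of the 9 were lower and 1 was higher. That gene was Phf19, which brings PRC2 to active chromatin, at 5.22 and 6.48 FPKM in wild-type cells (control, then ruxolitinib) and at 8.72 and 10.1 FPKM in knockout cells (likewise). The histone-binding subunits Rbbp7, on the X chromosome, and Rbbp4 were also higher in both knockout libraries, and for the X-linked Rbbp7 genotype and sex cannot be told apart. Rbbp7 was at 57.5, 58.7, 80.9 and 75.9 FPKM and Rbbp4 at 62.0, 71.3, 77.8 and 81.3. Phf1, a relative of Phf19, went the other way at 18.8, 23.4, 13.05 and 16.5 FPKM. Mtf2 was at 12.3, 11.7, 14.0 and 13.7 FPKM, and Jarid2, a subunit of another PRC2 variant, at 5.29, 5.48, 4.33 and 5.00. With drug 0 of 9 reached 1.5-fold (1 with TPM), with a median of 0.19, and on the drug comparisons 0 of 9 did so in either genotype.

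PRC1 and the partners of BAP1 differed less. Of 23 measured PRC1 genes 0 reached 1.5-fold in any of the 4 comparisons, and the median knockout ratio was 0.02 without and with drug. Shares of measured genes at 1.5-fold ran from 1.05% to 3.88% higher and from 2.20% to 5.06% lower in these comparisons. The ubiquitin ligase Rnf2 was at 15.0 and 15.8 FPKM in wild-type cells (control, then ruxolitinib) and at 15.4 and 16.5 FPKM in knockout cells (likewise), and its partner Bmi1 at 16.2, 15.7, 18.6 and 17.6. The CpG-binding subunit Kdm2b was at 9.58, 9.97, 11.5 and 11.2 FPKM, the chromodomain protein Cbx7 at 2.31, 3.01, 2.74 and 4.03 and the corepressor Bcor at 28.8, 31.7, 28.2 and 32.3. Of 8 measured partners of BAP1 and ASXL 0 reached 1.5-fold in the 4 comparisons, with median knockout ratios of -0.06 without drug and -0.05 with drug that became 0.09 and 0.06 with TPM. Hcfc1, the cofactor that BAP1 binds, was at 31.6, 30.7, 32.7 and 33.7 FPKM, the sugar transferase Ogt at 34.8, 35.4, 30.2 and 31.3 and the DNA-binding partner Foxk1 at 14.7, 15.4, 13.5 and 13.9. The lists of 14 MLL and trithorax genes, 16 SWI/SNF genes and 5 other H2A deubiquitinases also had 0 genes at 1.5-fold in the 4 comparisons.

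**Figure D4:**
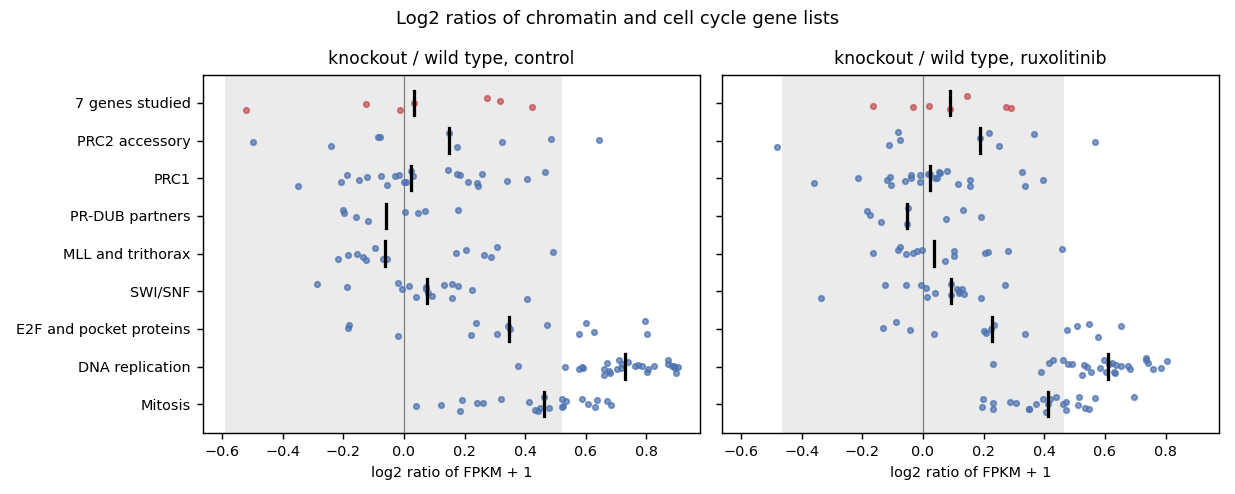
Log2 ratio of FPKM + 1 for knockout over wild type, without drug on the left and with ruxolitinib on the right, for each measured gene (points) of the 7 genes and of 8 gene lists, with list medians as black lines and the 5th to 95th percentile of measured genes in grey. The medians of the DNA replication list, 0.73 and 0.61, lie to the right of Ezh2 at 0.42 and 0.29, and PRC1 and PR-DUB (BAP1 complex) partner lists centre near 0.

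The H3K27 demethylases Kdm6b and Kdm6a, which remove the mark of PRC2, differed more between genotypes than the writers Ezh2 and Ezh1. Kdm6b was at 14.1 and 11.3 FPKM in wild-type cells (control, then ruxolitinib) and at 7.57 and 8.32 FPKM in knockout cells (likewise), a log2 ratio for knockout over wild type of -0.82 without drug and -0.40 with drug. The X-linked Kdm6a was at 15.3, 15.9, 23.3 and 26.3 FPKM, log2 ratios of 0.58 (control) and 0.69 (ruxolitinib). Its Y-linked relative Uty stood at 7.12 (control) and 7.04 FPKM (ruxolitinib) in wild-type cells, and was listed at 0 in both knockout libraries. Of these 3 genes 0 were 1.5-fold higher and 2 lower without drug, and 1 was higher and 1 lower with drug. Shares over measured genes were 3.88% higher and 5.06% lower without drug, and 2.97% and 3.34% with drug. Uty was 1 of the 2 lower genes without drug and the only lower one with drug. It passed the filter of a mean of 1 FPKM only through the wild-type libraries, so its count follows in part from the filter. Kdm6a lay close to the line, and with TPM 1 gene was higher without drug. Kdm6a is known to escape X inactivation, and Kdm6a and Uty followed Xist across the 4 libraries, so their genotype differences cannot be told apart from sex.

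Of 35 genes known as Polycomb targets in other cells, 4 were measured and 12 were listed at 0 in all 4 libraries, so a median over the list is not given. Cdkn2a, which encodes the cell cycle inhibitors p16INK4A and p19ARF and is counted here as 1 gene, was at 141 FPKM (control) and 126 FPKM (ruxolitinib) in wild-type cells and at 38.7 FPKM (control) and 35.8 FPKM (ruxolitinib) in knockout cells. Both knockout libraries were below both wild-type libraries, with log2 ratios of -1.84 and -1.78 without and with drug. Its neighbour Cdkn2b, a related inhibitor, was at 5.11, 3.05, 1.254 and 1.18 FPKM. In each of the pairs with and without drug, 1 of the 4 measured targets was 1.5-fold higher in the knockout and 2 were lower. Of all measured genes, 3.88% were as far higher and 5.06% lower without drug, and 2.97% and 3.34% with drug. The higher target was Hoxb4, a homeobox factor of progenitors, at 0.731, 0.561, 2.02 and 1.67 FPKM. It passed the filter of a mean of 1 FPKM only through the knockout libraries, so its count on the higher side follows in part from the filter. Meis1 was at 35.5, 38.2, 30.1 and 32.2 FPKM. Hoxa9 did not exceed 0.00776 FPKM and Cdkn1c did not exceed 0.106.

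**Figure D5:**
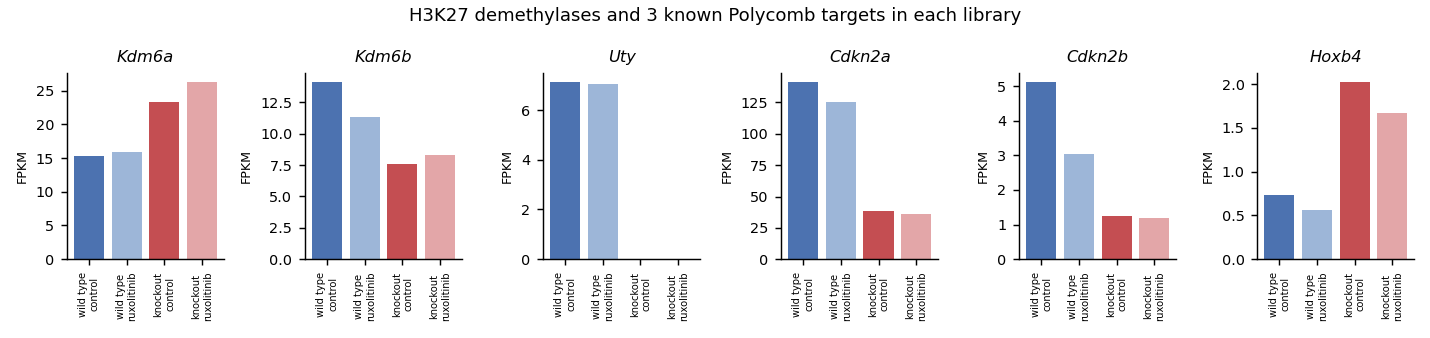
FPKM (linear axes from 0) in the 4 libraries, 1 library per bar. Genes are the H3K27 demethylases Kdm6a and Kdm6b, Uty (the Y-linked relative of Kdm6a), and the Polycomb targets Cdkn2a, Cdkn2b and Hoxb4. Cdkn2a is at 126 FPKM or more in the wild-type and at 38.7 or less in the knockout libraries, and Uty is listed at 0 in the knockout libraries.

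Genes of dividing cells were higher in the same libraries as Ezh2, Suz12 and Eed. The summed level of 28 DNA replication genes was 881 FPKM (control) and 993 FPKM (ruxolitinib) in wild-type cells, and 1474 FPKM (control) and 1495 FPKM (ruxolitinib) in knockout cells. Of these 28 genes 25 were at least 1.5-fold higher in knockout than wild-type cells in the control pair and 17 in the ruxolitinib pair, and 0 were lower by that much. Over all measured genes, 3.88% were as far higher in the control pair and 2.97% in the ruxolitinib pair. The helicase subunit Mcm5 was at 42.9, 51.0, 79.4 and 85.5 FPKM and the primase Prim1 at 23.3, 27.9, 44.0 and 45.5. Cdt1 and Cdc6, which load the helicase, were at 16.3, 18.9, 31.3 and 33.2 FPKM and at 4.62, 5.65, 9.46 and 9.29 FPKM, and Cdc45, which activates it, at 16.1, 17.5, 30.7 and 30.0. The median log2 ratio of the list was 0.73 without drug and 0.61 with drug, beside 0.42 and 0.29 for Ezh2.

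Mitosis genes had a median of 0.46 without drug and 0.41 with drug over 23 genes, with 6 genes at 1.5-fold higher without drug, 1 with drug and 0 lower. Measured genes as far higher made up 3.88% without drug and 2.97% with drug. Topoisomerase Top2a was at 74.1, 77.7, 115.8 and 113.9 FPKM and the checkpoint kinase Bub1 at 11.9, 12.1, 18.9 and 17.6. The spindle kinase Aurkb was at 33.1, 33.3, 53.6 and 49.8 FPKM, the kinetochore protein Ndc80 at 15.3, 17.0, 25.0 and 28.2 and the proliferation marker Mki67 at 37.1, 39.1, 51.5 and 57.0 FPKM. Among 14 E2F factors, partners and pocket proteins, 4 were at least 1.5-fold higher without drug and 1 with drug, and 0 were as far lower. The same shares of measured genes, 3.88% and 2.97%, stand beside these counts. In each pair 11 of the 14 had positive and 3 negative ratios. E2f2 was at 3.37, 4.35, 6.63 and 7.40 FPKM, E2f5 at 1.19, 0.871, 2.37 and 1.66 and E2f7 at 4.13, 5.00, 6.78 and 7.96, each above wild type in both knockout libraries. The repressor E2f8 was at 22.8, 30.1, 40.3 and 44.6 FPKM and the activator E2f1 at 20.5, 24.0, 25.6 and 27.8. The summed level of 14 mast cell markers, to which Cma1, Fcer1a and Srgn gave the most, was lower in the knockout libraries, at 32208 (control) and 35568 FPKM (ruxolitinib) in wild-type cells and 22162.5 and 26338 FPKM in knockout cells. Of the 13 measured markers 11 had negative ratios without drug and 7 with drug. At 1.5-fold without drug, 2 markers were higher and 5 lower, beside 3.88% and 5.06% of measured genes. With drug 2 markers were higher and 2 lower, beside 2.97% and 3.34% of measured genes. Of this list Cpa3 was listed at 0 in all libraries. Granulocyte markers summed to 90.6 and 109 FPKM in wild-type and 29.5 FPKM in either knockout library, and Ctsg, the 1 measured gene of 10, made up nearly all of that sum. The other granulocyte genes stayed below the filter. Some of them were higher in the knockout, such as Mpo at 0.0380, 0.0445, 1.13 and 1.31 FPKM and Prtn3 at 0.0870, 0.191, 0.546 and 0.293. Others were not, as Ltf and Ngp were listed at 0 in both knockout libraries and Camp was at 0, 0.0513, 0 and 0.0464 FPKM. Monocyte markers summed to 34.7 to 58.1 FPKM, erythroid markers to 123 to 156, megakaryocyte markers to 570.1 to 963, stem cell markers to 916 to 1480 and lymphoid markers to at most 0.754. The part of cell division and of cell type in the differences of the PRC2 genes was not tested.

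Likeness of pattern was measured as the distance between log2(FPKM + 1) profiles over the 4 libraries, each centred on its own mean, among genes whose mean reached 5 FPKM and which ranged over at least 0.5 times the member's range. The nearest to Ezh2 was Baz1b, a chromatin remodelling protein, at 33.6, 37.6, 45.3 and 46.3 FPKM, with a distance of 0.015. It was followed by Jade1, Xrcc2, Ect2 and Nucks1, and Suz12 ranked 51 and Eed 508 among 5279 candidates. The nearest to Ezh1 was the mitophagy receptor Bnip3l, at 16.9, 16.4, 11.6 and 14.9 FPKM, with a distance of 0.03, followed by the histone demethylase Kdm4b at 20.4, 19.9, 14.3 and 18.0 FPKM. The kinase Pink1, also of mitophagy, was next at 29.2, 28.4, 19.1 and 25.0 FPKM, then Arhgap18 and Evi2a. The nearest to Asxl1 were Wdr48, Slc25a14, Gatad2b, Kif2a and Lrrc8b, and Asxl2 ranked 667 among 7861 candidates. The nearest to Bap1, whose values hardly varied, were Mtmr9, Tmem248, Josd1, Tada1 and Gosr1. With 4 libraries many profiles are alike, so these names describe the libraries and no more.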

How the data were processed

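Total RNA depleted of ribosomal RNA went to Illumina sequencing, per the labels' protocols. STAR and Cuffdiff on mm10 were used, per the submitters' processing notes; the sources used here do not give versions, annotation, strand setting or scaling between libraries. FPKM values of 4 libraries were deposited by the authors, and a Cuffdiff table of 6 pairs with log2 fold changes and q-values (adjusted p-values), of which 4 pairs were used. The 2 value columns of that table were left out, since they repeat the FPKM. Each library was assigned by its title. With 1 library per group no p-value was computed.

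Ratios were taken on log2(FPKM + 1), and genes whose mean reached 1 FPKM counted as measured. A 1.5-fold rule and a log2 ratio of 0.32 in size were applied to all measured genes. Depth came from the steps of low FPKM values of genes with 1 annotated transcript over 1500 bases in GENCODE M21, less 200 bases. Of 137 to 173 low values set aside per library, 75.7% to 82.8% lay within 0.15 of a whole multiple. Member fragments were estimated with the shortest RefSeq-matched transcript and ranged from 2180 to 9120. Intervals are exact Clopper-Pearson intervals at 95% (normal for differences of 2 ratios) and cover counting error only. The 1.5-fold rule was tried on simulated libraries with known ratios, drawn at the estimated depth with counting error only. That simulation did not test the depth estimate or the intervals.

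The 7 members, the 18 gene lists and the rule for named genes were chosen with earlier results of these data known. The rule took the members, up to 4 genes at 1.5-fold per Polycomb or cell cycle list, a fixed set, and the 5 genes nearest to 4 members. Phf1, Asxl3 and the marker genes were named after their values were seen. Promoters came from RefSeq (7 of 7 members matched); proteins were not used here. Coordinates are those of the deposited table, 1-based. Alternatives were pseudocounts of 0.1 and 5, TPM, median centring, no filter or a mean of 5 FPKM, other fold rules and the authors' fold changes. Software was scipy 1.17.1, pandas 2.3.3, numpy 2.4.6 and matplotlib 3.10.9 under Python 3.11.15.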

Additional observations from a re-analysis of the deposited data

Results flagged for a closer look

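For 3 of the 7 genes the same contrast had opposite signs in the 2 pairs of libraries. With ruxolitinib, Ezh1 had a log2 ratio of -0.01 in wild-type and 0.34 in knockout cells, a difference of 0.36. Eed had 0.03 in wild-type and -0.10 in knockout cells, a difference of -0.13. For knockout over wild type, Asxl1 had -0.01 without drug and 0.09 with drug, a difference of 0.10. With TPM the opposite signs remained for Eed but not for Ezh1, at 0.02 and 0.38, or Asxl1, at 0.13 and 0.22. None of these differences was tested, since each group had 1 library, and 1 ratio of each pair lay within counting error of 0.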

How the results depend on the processing

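Of the 28 log2 ratios of the 7 genes, 0 changed sign under pseudocounts of 0.1 or 5 or with median centring, and 6 did so with TPM, all of them ratios of at most 0.12 in size on the FPKM scale. With TPM 14 of 28 moved by more than 0.5 times the width of their counting interval, which were the ratios of knockout over wild type, by up to 0.15. Counts of members at 1.5-fold stayed at 0 in every comparison under both pseudocounts, TPM, centring, a 2-fold rule and the authors' fold changes. With a threshold of 0.32 on the log2 scale the knockout without drug had 1 member higher and 1 lower, and ruxolitinib in knockout cells 1 higher. With TPM, Ezh2, Suz12 and Eed passed that threshold on the higher side without drug, and Ezh2 and Suz12 with drug. Measured genes past it on the higher side also rose with TPM, from 1343 to 2759 without drug and from 989 to 1957 with drug. With a pseudocount of 5 the difference in Ezh2 over Ezh1 without drug was 0.79, since a larger pseudocount shrinks ratios. With TPM the genes at 1.5-fold higher in the knockout without drug became 2 for PRC2 accessory genes (1 with FPKM), 1 for PRC1 (0), 1 for H3K27 demethylases (0), 1 for MLL and trithorax (0, and likewise with drug) and 14 for mitosis (6), and with drug 1 for PRC2 accessory genes (0), 9 for mitosis (1) and 5 for E2F factors and pocket proteins (1). With a pseudocount of 0.1, 1 gene was also higher for H3K27 demethylases and PRC1 without drug, for PRC2 accessory genes with drug and for PRC1 with ruxolitinib in wild-type cells, each in place of 0. With a pseudocount of 5, PRC2 accessory genes without drug and H3K27 demethylases with drug had 0 higher in place of 1. With a mean of at least 5 FPKM, H3K27 demethylases had 1 lower without drug and 0 with drug. No paired analysis was possible because each group has 1 library and the labels give no replicate numbers. Depth does not limit the 7 genes; the lack of replicates does.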
